A study of Mus musculus with 3 samples.

Results

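The R-spondin and WNT pathway genes described here are Rspo1, Wnt4, Wnt5a, Lgr5, Znrf3, Axin2, Sp5, Lef1, Nkd1 and Notum, 10 of the 53465 genes in the count tables, picked by symbol. They were followed in dissociated whole ovaries of female C57BL/6 mice, measured cell by cell in 3 libraries: 1 from embryonic day 16.5 (day 17 in its title), 1 from postnatal day 7 and 1 from postnatal day 14. No library carried a mutation or a treatment, and the labels do not say how many animals gave each one. A count is a unique molecular identifier (UMI), which stands for 1 captured mRNA molecule. Levels are UMIs summed over the cells of a class in a library and scaled to 1000000 UMIs (CPM), with exact Poisson 95% intervals in brackets. Because each age is a single library, differences between ages have no replicates behind them and were not tested. The intervals, and those of ratios, cover counting error only, and age and library cannot be told apart.

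WNT proteins are secreted signals that bind Frizzled and LRP receptors at the cell surface, and the canonical branch of the pathway keeps β-catenin from being degraded so that it acts with TCF and LEF factors on target genes. R-spondins bind LGR receptors and so hold back ZNRF3 and RNF43, enzymes that remove Frizzled receptors, which makes cells more sensitive to WNT. In the mouse, Rspo1 and Wnt4 are needed for ovarian development before birth, and Lgr5 is known as a marker of ovarian surface epithelium. Axin2, Sp5, Lef1, Nkd1, Znrf3, Notum and, in many tissues, Lgr5 itself are used as readouts of canonical WNT signalling, since they rise with it, and several of them feed back on the pathway.

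TCF and LEF factors bind DNA with the core letters CTTTGA, often followed by T, so the bases before the start sites of target genes were searched for CTTTGAT and CTTTGA on both strands; every CTTTGAT is also a CTTTGA. In the RefSeq promoter table (GRCm38.p6), 6 members (Rspo1, Wnt4, Axin2, Sp5, Lef1 and Nkd1) had 9 windows of 250 bases before a start. Lgr5, Wnt5a, Znrf3 and Notum are named only. Of all 32851 such windows, 1053 (3.21%) held CTTTGAT and 4544 (13.8%) held CTTTGA. A related word, CTTTGT, was searched too and was held by 5408 windows (16.5%). Among members it was found for Sp5 and Lef1, and it is left unmarked below. The windows with a match to CTTTGA are shown because both genes are target genes of the pathway, with those matches in capitals and all other bases in lower case. Matches were not set against the levels described next. The window of Sp5, a transcription factor gene, is chr2:70474673-70474922 on the plus strand. It holds CTTTGA 204 to 199 bases and CTTTGAT 104 to 98 bases before the start.
Sp5: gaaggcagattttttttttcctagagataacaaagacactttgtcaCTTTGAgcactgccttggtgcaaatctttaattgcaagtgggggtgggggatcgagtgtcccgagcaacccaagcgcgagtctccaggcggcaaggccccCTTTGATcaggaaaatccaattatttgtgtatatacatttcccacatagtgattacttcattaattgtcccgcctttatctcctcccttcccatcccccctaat
The window of the start of Lef1 that had a match is chr3:131156044-131156293 on the plus strand. It holds TCAAAG, which is CTTTGA on the other strand, 180 to 175 and 120 to 115 bases before that start. This window lies inside the gene, which is annotated at chr3:131110471-131224356.
Lef1: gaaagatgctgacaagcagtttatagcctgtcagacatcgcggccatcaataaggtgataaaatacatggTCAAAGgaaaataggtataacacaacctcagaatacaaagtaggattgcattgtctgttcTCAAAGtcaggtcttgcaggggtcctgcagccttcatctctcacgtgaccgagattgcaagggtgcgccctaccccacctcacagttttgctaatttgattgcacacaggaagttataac
The other Lef1 windows and those of Rspo1, Wnt4, Axin2 and Nkd1 held neither CTTTGAT nor CTTTGA. A match is a description of these letters and not a binding site.

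Of 1554 deposited barcodes 1548 were kept, 456, 509 and 583 at the 3 ages in order of age. The libraries held 8994085, 8743797 and 9065595 UMIs in all, the median kept cell held 15090.5, 12224 and 11435 UMIs, and 0 barcodes were shared between libraries. Clustering gave 21 clusters, of which 17 took a class name from marker genes and 4 did not. Granulosa-like cells, named after the somatic cells that enclose the oocyte, made up 76, 88 and 94 cells. They came from different clusters at each age: cluster 9 held them at embryonic day 16.5, cluster 7 held 84 of the 88 at postnatal day 7 and cluster 6 held 87 of the 94 at postnatal day 14. Of 20 granulosa markers, 6 were at least 2-fold above other cells in cluster 9, 14 in cluster 7 and 15 in cluster 6. The classes at the 3 ages may therefore not be the same kind of cell. Foxl2, a defining granulosa factor, stood at 202, 325 and 283 CPM in granulosa-like cells, while Amh, a hormone gene of growing follicles, stood at 1.32, 480 and 459 CPM. Foxl2 was not confined to them: in stroma-like cells it stood at 165 CPM at postnatal day 7 and 156 CPM at postnatal day 14. Surface-epithelium-like cells, named after the layer that covers the ovary and marked by mesothelial genes, were few, 10, 15 and 12 cells. Each of these had a UMI of Upk3b, which stood at 474, 881 and 2082 CPM, against 11.2, 1.02 and 4.22 CPM in granulosa-like cells. In the embryonic surface-epithelium-like cells the stroma markers summed to 3270 CPM, above the 1800 CPM of the surface epithelium markers, and the erythroid markers to 5786 CPM. Stroma-like cells made up 0, 233 and 221 cells. Another 105 embryonic cells formed cluster 3, led by Nrxn3 and Il33, which has no name. It had 6 of 12 smooth muscle markers and 5 of 14 stroma markers at least 2-fold above other cells, while Ptn, a stroma marker, was among its 10 leading genes. The stroma markers summed to 7169 CPM there and the smooth muscle markers to 576 CPM. The values of every member in each class with at least 10 cells stand in the plot of the members by class.

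**Figure D1:**
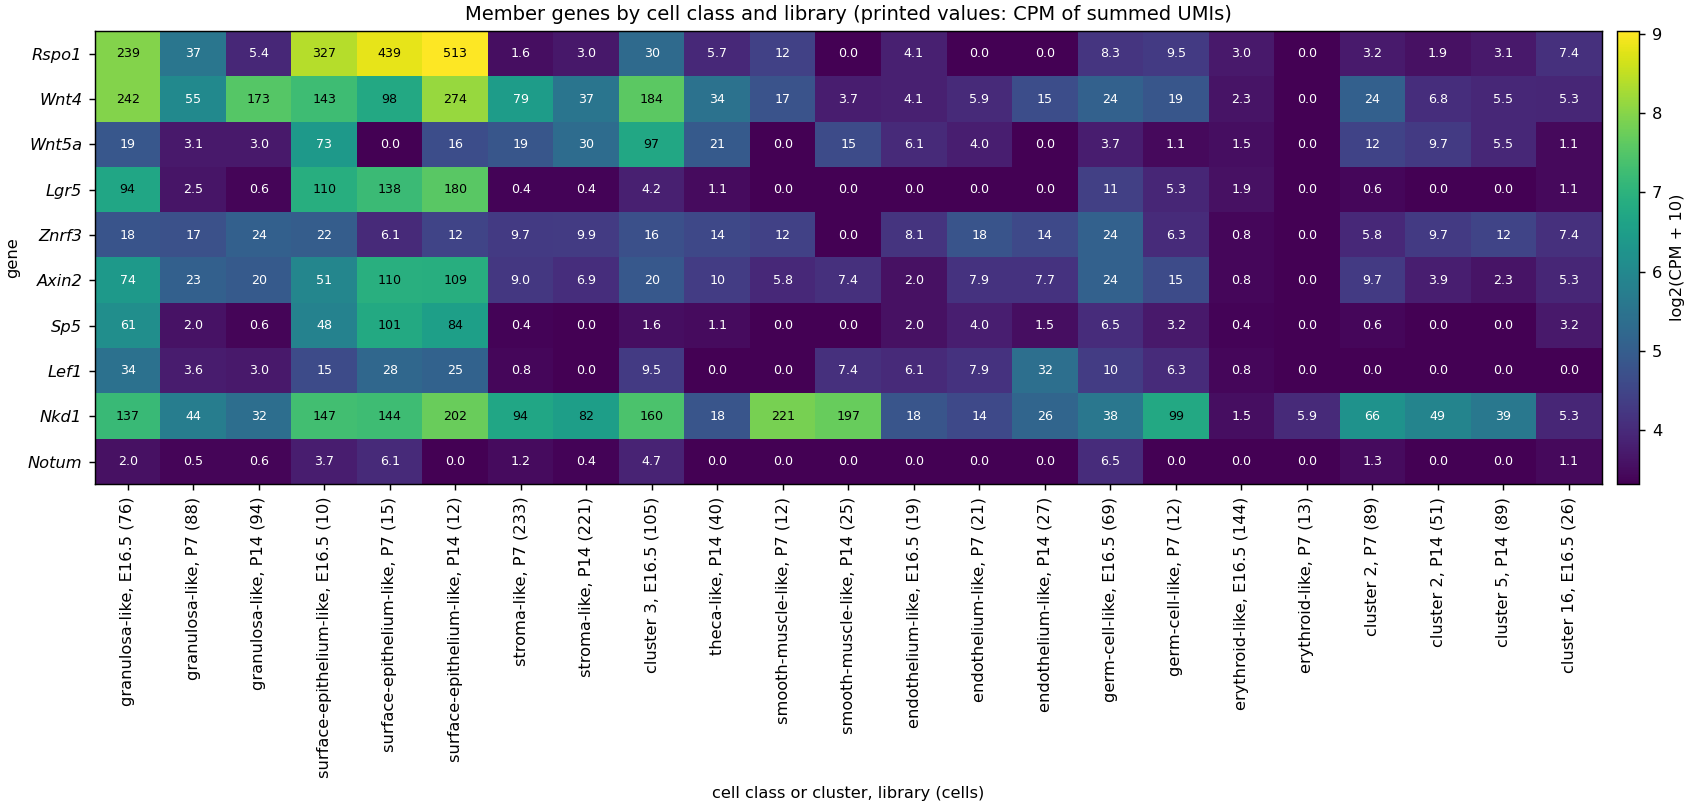
CPM of the 10 members (rows) in each cell class or unnamed cluster of a library (columns, number of cells in brackets), coloured by log2(CPM + 10) with CPM printed in each cell. Rspo1, Lgr5 and Sp5 are high in embryonic granulosa-like cells and in surface-epithelium-like cells of all 3 ages, Wnt5a is highest in embryonic cluster 3, and Nkd1 is spread over many classes.

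Rspo1, the R-spondin ligand, was high in embryonic granulosa-like cells, with 239 CPM (215 to 265), lower at postnatal day 7, with 37.2 CPM (29.2 to 46.8), and lower again at day 14, with 5.43 CPM (2.48 to 10.3). Each step was clear of counting error, 6.43-fold lower (4.99 to 8.38) from embryo to day 7 and 6.86-fold lower (3.42 to 15.6) from day 7 to day 14. In surface-epithelium-like cells Rspo1 reached 327 CPM (263 to 402), then 439 CPM (370 to 517) and at day 14 a level of 513 CPM (438 to 597). This class thus had no lower level after birth, and every cell of that class had a Rspo1 UMI at every age. At postnatal day 14 the surface-epithelium-like level was 94.5-fold (48.6 to 210) the granulosa-like level, at postnatal day 7 it was 11.8-fold (8.83 to 15.8), and in the embryo 1.37-fold (1.07 to 1.73). In all other classes of at least 20 cells Rspo1 stayed at or below 8.29 CPM, except in embryonic cluster 3 with 29.5 CPM (22.3 to 38.4).

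Wnt4, a ligand that supports the female fate of the gonad, had another course. Its level in granulosa-like cells was 242 CPM (218 to 268) in the embryo, 55.1 CPM (45.2 to 66.5) at postnatal day 7 and 173 CPM (154 to 194) at postnatal day 14. The day 7 level was 4.39-fold lower (3.53 to 5.49) than the embryonic one, and the day 14 level was 3.14-fold (2.51 to 3.96) the day 7 level. The surface-epithelium-like cells were lowest at day 7 as well, with 143 CPM (102 to 196), 98.2 CPM (67.2 to 139) and 274 CPM (219 to 337), although the intervals of the first 2 ages overlap. In stroma-like cells Wnt4 was lower at the later postnatal age: it was 78.7 CPM at postnatal day 7 and 36.8 CPM at postnatal day 14, a level 2.14-fold lower (1.65 to 2.78). The class with most Wnt4 UMIs was stroma-like at postnatal day 7 (49.8% of the library's Wnt4 UMIs) and granulosa-like at postnatal day 14 (54.9%). Those classes made up 45.8% and 16.1% of the cells of their libraries. Different clusters held the stroma-like cells at each age: cluster 1 had 170 cells and then 5, cluster 0 had 13 and then 188, and cluster 8 had 50 and then 28. Within them Wnt4 was uneven. At postnatal day 7 it stood at 179 CPM in cluster 8, 55.5 CPM in cluster 1 and 13.6 CPM in cluster 0, and at postnatal day 14 at 88.7 CPM in cluster 8 and 31.4 CPM in cluster 0. Cluster 0 was thus not lower at day 14, though its day 7 value rests on 2 UMIs.

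Wnt5a, a ligand known mostly for signalling outside the β-catenin branch, was found mostly outside granulosa-like cells at every age. In the embryo cluster 3 stood at 97.1 CPM (83.6 to 112), surface-epithelium-like cells at 73.5 CPM (44.9 to 113) and granulosa-like cells at 19.1 CPM (12.8 to 27.4). Cluster 3 and the surface-epithelium-like cells did not differ beyond counting error, and cluster 3 was 5.08-fold (3.42 to 7.80) above the granulosa-like cells. After birth the stroma-like cells were the main source, with 18.7 CPM at postnatal day 7 and 30.4 CPM at postnatal day 14, which were 6.11-fold (2.61 to 17.5) and 10.1-fold (4.13 to 32.0) the granulosa-like levels of 3.06 and 3.01 CPM. Theca-like cells, the steroid-producing cells around follicles found only at postnatal day 14 here, stood at 20.6 CPM and did not differ from stroma beyond counting error. Of the Wnt5a UMIs of each library, 73.3% lay in cluster 3 in the embryo, and 61.5% and 58.7% in stroma-like cells after birth. These are large groups, with 23.0%, 45.8% and 37.9% of the cells of their libraries, and their shares of all UMIs stand in the plot of UMI shares. At postnatal day 14 the small stromal cluster 8 was 2.70-fold (1.44 to 4.81) above cluster 0 in Wnt5a, at 67.6 and 25.04 CPM. In surface-epithelium-like cells Wnt5a had 20 UMIs in the embryo, 0 at postnatal day 7 and 5 at postnatal day 14. Against the 3 UMIs that a count of 0 allows at day 7, the embryonic level was at least 7.98-fold higher, and the exact interval of the ratio, which also covers the counting error of the 20 UMIs, begins at 5.91-fold.

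Part of embryonic cluster 3 had UMIs of Nkx2-5 or Tlx1, transcription factor genes known from the developing spleen and other organs, in 15 of its 105 cells. Wnt5a stood at 106 CPM in those 15 cells and 94.6 CPM in the other 90, so its level in the cluster was as high without them. The stroma genes Tcf21 and Pdgfra stood at 373 and 171 CPM in the cluster, and Foxl2 at 36.4 CPM. Cluster 3, with 23.0% of the embryonic cells, also held 43.8% of the embryonic Wnt4 UMIs, at 184 CPM (165 to 205). It held little Lgr5, with 4.22 CPM (1.82 to 8.32). Compared with stroma-like cells of postnatal day 7, it was 5.19-fold higher in Wnt5a, 2.34-fold higher in Wnt4 and 18.97-fold higher in Rspo1. That comparison is between a cluster without a name and a named class, which may be different cells.

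Lgr5, the R-spondin receptor, had a course like that of Rspo1. Its level in granulosa-like cells was 93.6 CPM (78.8 to 110) in the embryo (142 UMIs in 48 of 76 cells), 2.55 CPM (0.828 to 5.95) at postnatal day 7 (5 UMIs in 3 of 88 cells) and 0.603 CPM (0.0153 to 3.36) at postnatal day 14 (1 UMI in 94 cells). The embryonic level was 36.7-fold (15.4 to 115) the day 7 level. In surface-epithelium-like cells Lgr5 was 110 CPM (74.4 to 157) in the embryo, 138 CPM (101 to 185) a week after birth and 180 CPM (137 to 233) at day 14. In the embryo both classes were alike within counting error, with a surface to granulosa ratio of 1.18 (0.766 to 1.76), and at postnatal day 7 this ratio was 54.1 (21.6 to 175). Of the 76 embryonic granulosa-like cells, 65 lacked UMIs of Upk3b and Upk1b, both surface epithelium markers, and stood at 88.2 CPM of Lgr5, and the 11 others at 121 CPM. Krt19, another surface epithelium marker, had a UMI in 22 of the 76 cells. Among classes of at least 20 cells the next highest level was 11.1 CPM in embryonic germ-cell-like cells, where 9 of the 12 UMIs came from a single cell. Stroma-like cells had 1 Lgr5 UMI at each postnatal age.

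Znrf3, the enzyme gene on which R-spondin and LGR act, was found at low levels in most classes. Its granulosa-like level was 17.8 CPM (11.7 to 25.9), 16.8 CPM (11.6 to 23.6) and 23.5 CPM (16.7 to 32.1) at the 3 ages, with all 3 intervals overlapping. Embryonic germ-cell-like cells stood at 24.0 CPM. At postnatal day 14 the stroma-like level of 9.85 CPM was below the granulosa-like one, with a stroma to granulosa ratio of 0.419 (0.239 to 0.719). In surface-epithelium-like cells Znrf3 had 6, 2 and 4 UMIs, too few for an order.

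**Figure D2:**
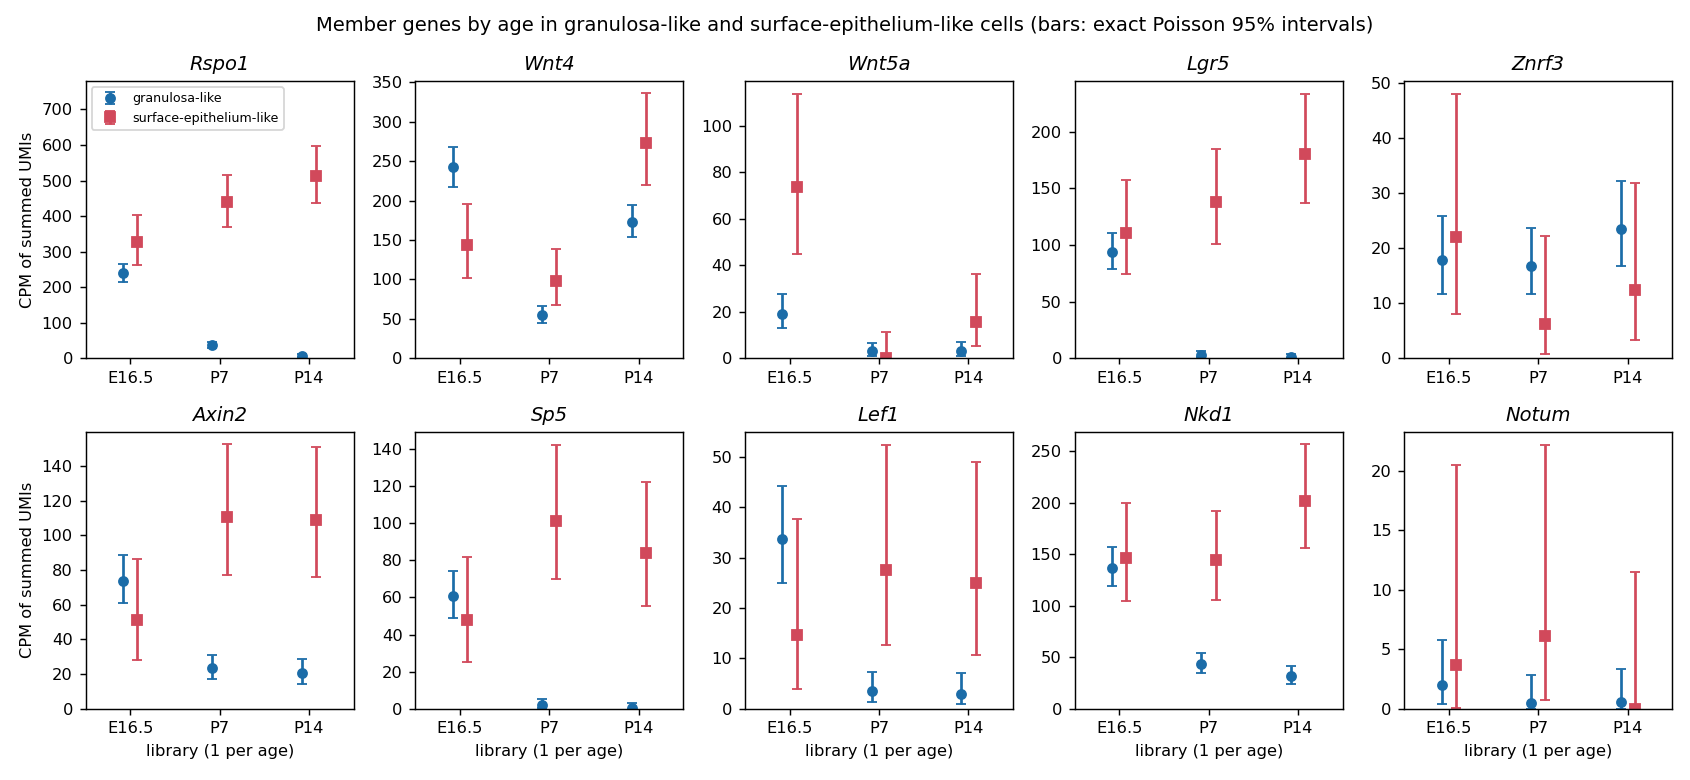
CPM (vertical axes, linear, starting at 0) of the 10 members at the 3 ages in granulosa-like cells (blue circles) and surface-epithelium-like cells (red squares), with exact Poisson 95% intervals from 1 library per age. For Rspo1, Lgr5, Axin2, Sp5, Lef1 and Nkd1 the intervals of both classes overlap in the embryo and are apart after birth, while Wnt4 is lowest at postnatal day 7 in both.

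The target genes split between genes that tracked Lgr5 and genes found more widely. Sp5, the transcription factor gene whose window with CTTTGAT is shown above, was at 60.6 CPM (48.9 to 74.4) in embryonic granulosa-like cells, 2.04 CPM (0.556 to 5.22) at postnatal day 7 and 0.603 CPM (0.0153 to 3.36) at postnatal day 14. In surface-epithelium-like cells it was 47.8 CPM (25.4 to 81.7), 101 CPM (69.7 to 142) and 83.9 CPM (55.3 to 122). The embryonic granulosa-like level was 29.7-fold (11.2 to 111) that of day 7, whereas the surface level at day 7 was 2.12-fold (1.09 to 4.39) the embryonic one, with separate Poisson intervals that overlap. Embryonic cluster 3, rich in Wnt4 and Wnt5a, had 3 Sp5 UMIs in 105 cells, but 304 UMIs of the target gene Nkd1.

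Axin2, a scaffold gene of the complex that degrades β-catenin, had a level of 73.8 CPM (60.8 to 88.8) in embryonic granulosa-like cells, 23.5 CPM (17.2 to 31.3) at postnatal day 7 and 20.5 CPM (14.2 to 28.6) at day 14. It was 3.15-fold lower (2.21 to 4.54) at postnatal day 7 than in the embryo and was still detected at day 14 in 23 of 94 cells. The surface-epithelium-like levels were 51.4 CPM (28.1 to 86.3), 110 CPM (77.4 to 153) and 109 CPM (75.8 to 151). At postnatal day 7 Axin2 was 4.71-fold (2.96 to 7.44) higher in the surface class than in granulosa-like cells and 12.3-fold (7.11 to 21.8) higher than in stroma-like cells. In the embryo cluster 3 stood at 19.5 CPM and germ-cell-like cells at 24.0 CPM, both below the granulosa-like level.

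Lef1, which encodes a DNA-binding partner of β-catenin, was 33.6 CPM (25.03 to 44.2) in embryonic granulosa-like cells, 3.57 CPM (1.43 to 7.36) at postnatal day 7 and 3.01 CPM (0.979 to 7.03) at postnatal day 14. The day 7 level was 9.42-fold lower (4.26 to 24.6). In surface-epithelium-like cells it had 4, 9 and 8 UMIs, or 14.7, 27.6 and 24.9 CPM. At postnatal day 14 the class with most Lef1 UMIs was endothelium-like, with 32.4 CPM and 56.8% of the library's 37 UMIs.

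Nkd1, an inhibitor that acts on Dishevelled inside the cell, was the most widely found target gene. In granulosa-like cells its levels by age were 137 CPM (119 to 157), 43.9 CPM (35.1 to 54.2) and 31.95 CPM (23.9 to 41.8), 3.13-fold lower (2.42 to 4.07) at postnatal day 7 than in the embryo. Embryonic cluster 3 stood at 160 CPM (143 to 179), with a cluster 3 to granulosa ratio of 1.17 (0.978 to 1.40). Stroma-like cells were above granulosa-like cells at both postnatal ages, at 94.3 and 81.8 CPM, and smooth-muscle-like cells higher again, at 221 and 197 CPM. The smooth muscle to stroma ratio was 2.34 (1.62 to 3.30) at day 7, in 12 cells, and 2.41 (1.74 to 3.28) at day 14, in 25 cells. The surface-epithelium-like levels were 147, 144 and 202 CPM with overlapping intervals. Notum, a secreted enzyme gene that removes the lipid WNT proteins need, had 21, 8 and 2 UMIs in the whole libraries, too few to compare classes.

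In granulosa-like cells, 8 of the 9 members with at least 10 UMIs over both libraries together were at least 2-fold lower at postnatal day 7 than in the embryo on the log2(CPM + 10) scale, and 0 were higher. Of all 13081 genes that met the same minimum, 5.27% were lower and 3.39% higher. The median difference was -1.68 over the 9 members and -0.13 over all genes. The exception was Znrf3, and Notum did not reach 10 UMIs. Lgr5, Sp5, Lef1 and Wnt5a had only 5, 4, 7 and 6 UMIs at postnatal day 7. They met the minimum through the embryo, where they were high, so for them a lower level was nearly given by the filter. The members were also chosen with earlier results of these data known, so the count is a description and not support. Between postnatal days 7 and 14, 1 of 7 members was lower (Rspo1) and 1 higher (Wnt4), against 1.20% lower and 1.29% higher among all genes. Different clusters hold the class at each age, as given above, and other markers moved with it. The 12 erythroid markers summed to 8338 CPM in embryonic granulosa-like cells and to 485 and 486 CPM after birth, with 12, 8 and 6 of them detected. The 14 stroma markers, all detected at each age, summed to 1360, 352 and 529 CPM, and the 12 surface epithelium markers to 328, 97.9 and 74.8 CPM. The 15 germ cell markers summed to 421, 35.7 and 6.03 CPM, the 9 theca markers to 204, 401 and 1180 CPM and the 12 endothelium markers to 67.2, 27.5 and 295 CPM. Their part in the differences was not tested.

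In surface-epithelium-like cells the same comparison gave another count. Of 8 members measured, 1 was lower at postnatal day 7 (Wnt5a) and 0 higher, against 6.10% lower and 8.03% higher among the 7295 genes measured, and the member median was 0.36. Between postnatal days 7 and 14, 1 of 7 was higher (Wnt4, 2.79-fold, 1.84 to 4.32) and 0 lower, against 3.62% lower and 7.05% higher. The 8 members lower in granulosa-like cells were all measured in the surface class, and 1 of them, Wnt5a, was lower there too. For comparison, of the 460 genes that were lower in granulosa-like cells and measured in the surface class, 107 (23.3%) were lower there too and 50 higher. With 8 members, a count of 1 is too small to set apart from that share. Over pathway genes and members together, 17 were lower in granulosa-like cells and measured in the surface class. Of these, 6 (35.3%) were lower there too (Bmp2, Fst, Fzd2, Gpc3, Lgr4 and Wnt5a) and 1 higher. Each surface-epithelium-like value rests on 10 to 15 cells, a class below the 20 cells set for naming members by class, and was singled out after its values were seen. Its embryonic cells depended on the processing. Coarser clusters, or each library clustered on its own, named 0 of them, and single cells gated by markers gave 4, while finer clusters gave 10. The UMIs were spread unevenly: 3 cells held 21 of the 30 Lgr5 UMIs in the embryo, 26 of 45 at postnatal day 7 and 37 of 58 at postnatal day 14, and 7 of 10, 9 of 15 and 11 of 12 cells had at least 1. The erythroid markers summed to 5786, 488 and 531 CPM in this class, the granulosa markers to 2098, 1924 and 1218 CPM and the stroma markers to 3270, 1138 and 2138 CPM. Its own surface epithelium markers summed to 1800, 5200 and 7071 CPM. The part of these changes in the counts was not tested. In stroma-like cells, 0 of 6 measured members were 2-fold apart between postnatal days 7 and 14 on the log2(CPM + 10) scale, against 0.649% lower and 0.641% higher among all genes, and the ratio of 2.14 given for Wnt4 falls just short of 2-fold on that scale.

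The class that held most UMIs of the ligand Rspo1, its receptor Lgr5 and the target gene Sp5 differed between embryo and postnatal ages. These shares follow the levels of every class: Lgr5 had 142 and 5 UMIs in granulosa-like cells of the embryo and of postnatal day 7, while its surface-epithelium-like level did not differ beyond counting error (ratio 1.25, 0.772 to 2.06). In the embryo granulosa-like cells held 71.7% (64.9 to 77.9, exact Clopper-Pearson) of the library's 198 Lgr5 UMIs, 67.7% of the 536 Rspo1 UMIs, 76.7% of the 120 Sp5 UMIs and 56.9% of the 197 Axin2 UMIs, with 16.9% of all UMIs. Surface-epithelium-like cells held 15.2% of the Lgr5 UMIs in the embryo, 78.9% (66.1 to 88.6) of 57 at postnatal day 7 and 93.5% (84.3 to 98.2) of 62 at postnatal day 14, with 3.04%, 3.73% and 3.55% of all UMIs. Their part of the Rspo1 UMIs was 16.6%, 60.3% and 85.5%, and of the Sp5 UMIs 10.8%, 75.0% and 90.0%. The day 7 shares depend on how cells are assigned. With coarser clusters they were 61.4% for Lgr5 and 51.5% for Rspo1, and with each cell assigned by its own markers 49.1% and 38.4%. Under those settings the day 14 shares of both genes were 83.9% or more. Of the Nkd1 UMIs the surface class held 12.5% at postnatal day 14, a smaller part than for Lgr5, Rspo1 and Sp5 but above its 3.55% of all UMIs, and of the Znrf3 UMIs 3.45%.

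**Figure D3:**
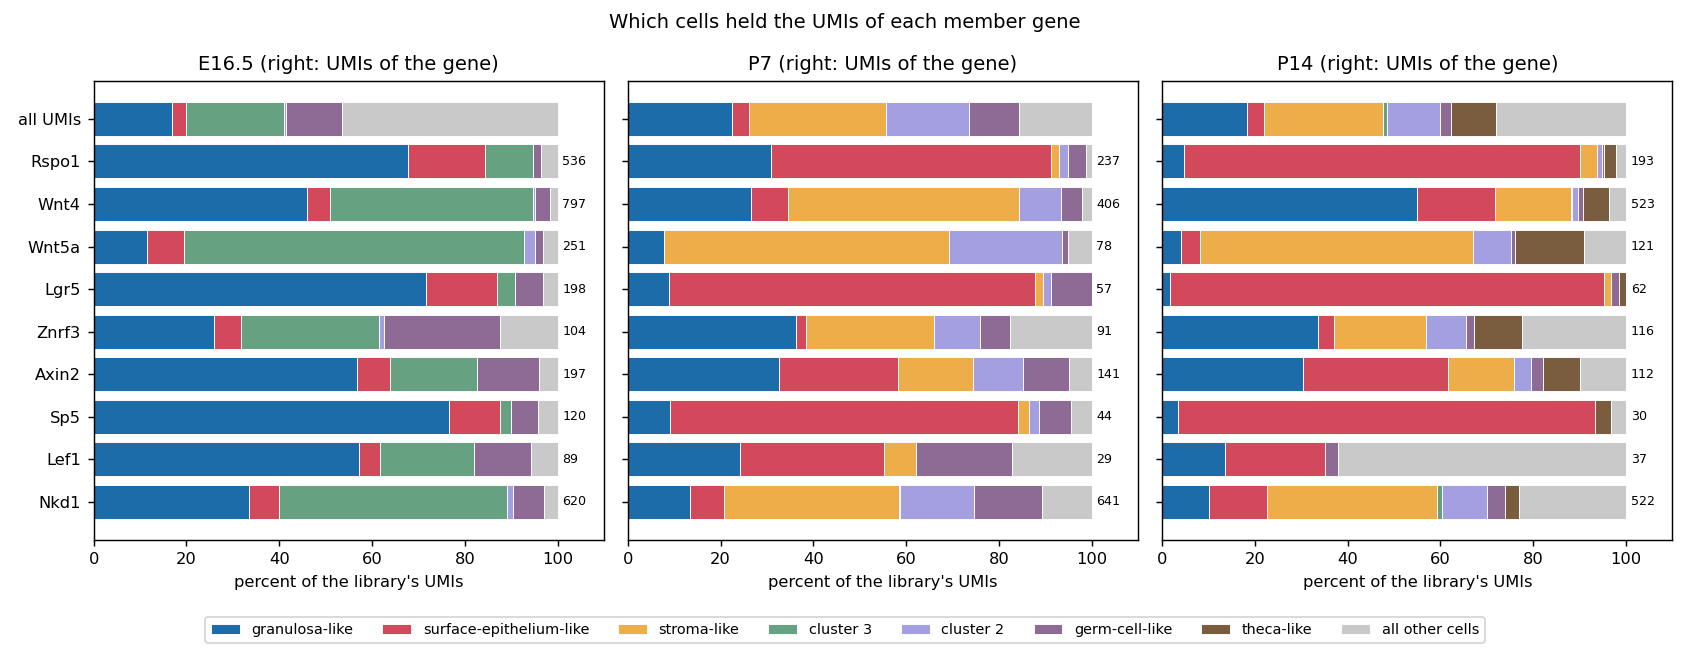
Percent of each member's UMIs in a library (horizontal axis) that lay in each cell class, with the share of all UMIs on top and the member's UMI total at the right; Notum is left out for its low counts. The red part, surface-epithelium-like cells, holds 15.2%, 78.9% and 93.5% of the Lgr5 UMIs at the 3 ages, while Wnt5a lies in cluster 3 and then in stroma-like cells.

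To ask whether ligand, receptor and target were found in the same cells, the UMIs of each cell were drawn down to 5000. Of 76 embryonic granulosa-like cells, 48 (63.2%, 51.3 to 73.9) then had a Rspo1 UMI, 45 a Wnt4 UMI, 36 a Nkd1 UMI, 25 (32.9%, 22.5 to 44.6) a Lgr5 UMI, 25 a Sp5 UMI and 20 an Axin2 UMI. Unthinned, 90.8% had a Rspo1 UMI and 63.2% a Lgr5 UMI. In embryonic erythroid-like cells, which should lack Rspo1, the thinned share was 2.78% at a median of 15792 UMIs per cell, against 15876 in granulosa-like cells. The erythroid markers summed to 539665 CPM in those erythroid-like cells and 8338 CPM in granulosa-like cells. Depth for all other genes was therefore lower in the erythroid-like cells, so the 2.78% is not a matched floor. Lgr5 and Rspo1 were found together in 14 cells, where the product of their shares gives 15.8, Lgr5 and Sp5 in 7 against 8.22, and Lgr5 and Axin2 in 4 against 6.58. Wnt4 and Axin2 were found together in 15 cells against 11.8, Rspo1 and Axin2 in 15 against 12.6, and Rspo1 and Sp5 in 11 against 15.8. Each product lay inside the exact interval of the pair, which for Lgr5 and Axin2 is 1.45% to 12.9% of cells. That interval covers the joint share alone and leaves out the separate shares. It therefore cannot decide whether a pair was found together more or less often than its product, which was not tested. Lgr5 and Foxl2 were found together in 12 cells against 13.5. Over all UMIs, Foxl2 stood at 132 CPM (102 to 167) in the 25 cells with a thinned Lgr5 UMI and at 239 CPM (209 to 271) in the 51 without. Rspo1 stood at 275 CPM (232 to 324) and 221 CPM (193 to 252) in these groups, with intervals that overlap. The groups had a median of 18485 and 14564 UMIs per cell, and the Foxl2 difference was not tested.

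Lists of pathway genes, which contain the members, give their surroundings. Over 8 lists with 94 genes, members included, 61 were measured in granulosa-like cells between embryo and postnatal day 7, of which 18 were at least 2-fold lower and 1 higher, with a median of -0.47, against 5.27% lower, 3.39% higher and a median of -0.13 over all genes. Of the 18 lower genes, 8 are the members already counted above, so these counts partly repeat that result. Feedback and target genes were lower in 7 of 13, and 1 was higher: Tnfrsf19, a receptor gene used as a WNT target, stood at 212 and 17.8 CPM, and Myc, a growth regulator, at 5.27 and 30.6 CPM. The 7 lower ones include the members Axin2, Sp5, Lgr5, Nkd1 and Lef1. R-spondins and their receptors were lower in 3 of 6, the members Rspo1 and Lgr5 and also Lgr4, a relative of Lgr5, at 118 and 36.2 CPM. Ligands were lower in 3 of 6, the members Wnt4 and Wnt5a and also Wnt6, which stood at 566, 254 and 142 CPM at the 3 ages. Ovary genes downstream of Wnt4 or Rspo1 were lower in 3 of 4: Fst, which encodes follistatin, an inhibitor of activins, stood at 1017 and 435 CPM, the signal gene Bmp2 at 48.1 and 2.04 CPM and the transcription factor gene Irx3 at 335 and 39.8 CPM. The other lists had 1 lower gene each, too few to set against the share over all genes: 1 of 12 WNT receptors was lower (Fzd2, 38.2 and 7.14 CPM), 1 of 16 cytoplasmic and nuclear components (Lef1), 1 of 5 inhibitors (Sfrp1, 88.3 and 16.3 CPM) and 1 of 4 genes of ligand secretion and handling (Gpc3, 53.4 and 14.3 CPM). Between postnatal days 7 and 14, 56 pathway genes were measured, of which 2 were lower (Rspo1 and the inhibitor Bambi, at 79.0 and 32.0 CPM) and 1 higher (Wnt4).

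In surface-epithelium-like cells 9 of 44 measured pathway genes were lower at postnatal day 7 than in the embryo and 3 higher, against 6.10% lower and 8.03% higher over all genes, so the count of higher genes is near the background. The higher genes were Wls, which carries WNT proteins to the cell surface (118 and 276 CPM), the cell cycle gene Ccnd1 (33.1 and 156 CPM) and Irx3 (95.5 and 322 CPM). Lower were, besides Wnt5a, Lgr4 (125 and 24.5 CPM), Fst (187 and 36.8 CPM) and Sfrp2, a secreted inhibitor (114 and 6.14 CPM). Irx3 was thus lower in granulosa-like cells and higher in the surface class, while Lgr4 was lower in both. These differences between classes were not tested.

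**Figure D4:**
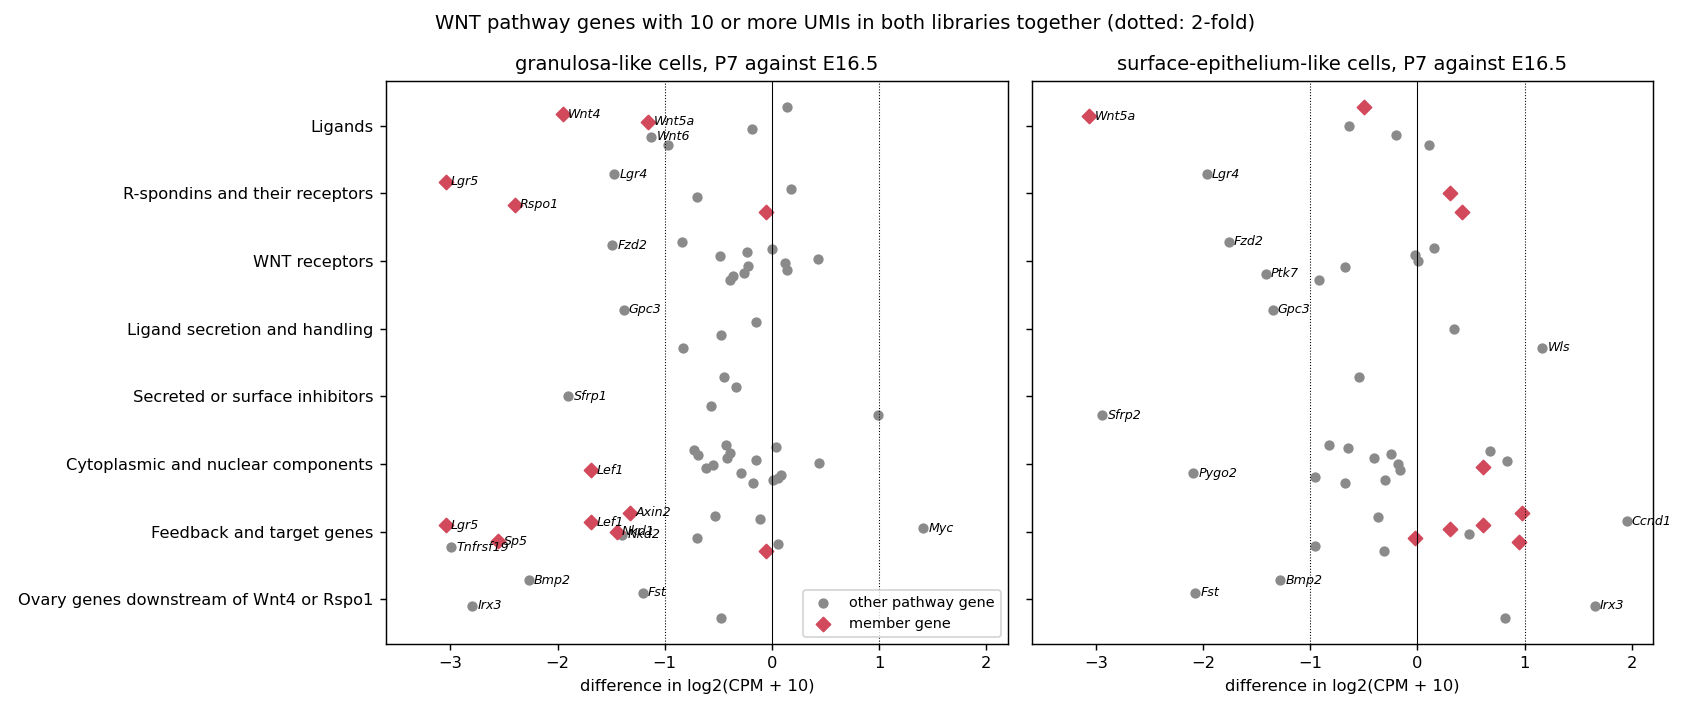
Difference in log2(CPM + 10) between postnatal day 7 and embryonic day 16.5 (horizontal axis, dotted lines at 2-fold) for pathway genes with at least 10 UMIs, by list, in granulosa-like cells (left) and surface-epithelium-like cells (right); members are red diamonds. On the left 8 of 9 members lie beyond 2-fold lower, on the right 1 of 8, Wnt5a.

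Across the 16 class and library units of at least 20 cells, the genes whose log2(CPM + 10) was most like that of Lgr5 were Sp5 (Pearson r = 0.97), Gng13 (0.96), Clec2l (0.96) and Bhlhe41 (0.95), among 11599 genes with at least 100 UMIs. For Rspo1 they were Lgals7 (0.96), Tnni1 (0.96), Usp29 (0.95), Bhlhe41 (0.95) and Zim1 (0.94). For Wnt4 they were Rian (0.94), Ptprv (0.92), 2010315B03Rik (0.90), Zfpm2 (0.90) and Upf3b (0.87), and for Wnt5a Nkain4 (0.93), Rgs17 (0.93), Cntfr (0.88), Meis1 (0.88) and Gm266 (0.86). These units do not include the surface-epithelium-like cells, share libraries and depth, and for Lgr5 have a single unit with a high level, the embryonic granulosa-like cells, so the values are a description. Gng13, which encodes a G protein subunit, is on the granulosa marker list and was the marker among the leading genes by which cluster 9, the embryonic granulosa-like cells, took its name. It was also present in the surface-epithelium-like cells, at 764, 267 and 438 CPM at the 3 ages, against 523, 9.18 and 6.03 CPM in granulosa-like cells.

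Overlapping genes limit some of these values, since the sources used here do not say whether counting used strand. In GENCODE M21 (GRCm38) Lgr5 lies at chr10:115450311-115587780 on the minus strand and overlaps A930009A15Rik on the other strand. Rspo1, Wnt5a, Axin2, Lef1 and Notum overlap antisense genes, and Lef1 and Nkd1 overlap short unconfirmed transcripts on their own strand. Wnt4 (chr4:137277489-137299726), Sp5 (chr2:70474923-70477729) and Znrf3 (chr11:5276324-5444847) overlap no other annotated gene.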

How the data were processed

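The 3 tables hold raw counts of UMIs per gene and cell barcode, deposited by the authors after Cell Ranger 2.1.1 on GRCm38, per the submitters' processing notes; per the labels, a 3′ kit was used and all libraries shared 1 sequencing lane. How barcodes were called cells and which annotation was used: not given in the sources used here. Members and lists were chosen with earlier results of these data known.

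Cells had to have at least 200 genes and no more than 20% mitochondrial UMIs. Counts were scaled to 10000 per cell and log-transformed, and 2000 variable genes (members and pathway genes left out) gave 30 principal components, 15 neighbours and Leiden clusters at resolution 1.0 (scanpy 1.11.5). A cluster took the class with most of its markers (118 genes, 9 classes) 2-fold above other cells, given at least 3 such markers, if 1 was among its 10 leading genes or they made up 50% of the list, and if no other class had more leading genes. That leading genes needed UMIs in 25% of the cluster's cells, and the 50% rule, were set after seeing the data. No embryonic stroma-like class arose, so that planned comparison was not made. Scrublet marked 1, 3 and 3 doublets, which were kept. Named genes were all members in classes of at least 20 cells, up to 3 genes per list and direction (at least 20 UMIs, separate intervals), and the 5 most correlated genes, of which 1 is not reported here. Ratios have exact conditional binomial intervals. Scripts were tested on simulated data.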

Additional observations from a re-analysis of the deposited data

Results flagged for a closer look

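Several members had ratios on opposite sides of 1 in the 2 classes, with 1 library per age. The difference between classes was not tested, and 0 members reached 2-fold higher in surface-epithelium-like cells at postnatal day 7 on the log2(CPM + 10) scale. From embryonic day 16.5 to postnatal day 7, the surface-epithelium-like level over its embryonic level was 1.25 for Lgr5, 1.34 for Rspo1, 2.15 for Axin2, 2.12 for Sp5 and 1.88 for Lef1, while each was at least 2-fold lower in granulosa-like cells. From postnatal day 7 to postnatal day 14 the surface-epithelium-like ratio of Rspo1 was 1.17, while it was 6.86-fold lower in granulosa-like cells. The intervals of the surface ratios include 1 for Lgr5, Lef1 and the later Rspo1 ratio.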

How the results depend on the processing

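The counts of members lower or higher in postnatal day 7 granulosa-like cells against embryonic ones were 7 or 8 and 0 under every alternative that gave a value. Between postnatal days 7 and 14, 1 member was lower, 2 with each library clustered on its own and 0 with granulosa-like and surface-epithelium-like cells pooled. The postnatal day 7 share of UMIs in surface-epithelium-like cells was 61.4% (Lgr5) and 51.5% (Rspo1) at resolution 0.5, and 49.1% and 38.4% with single cells gated by markers. The embryonic share in granulosa-like cells was 84.3% (Lgr5) and 83.4% (Rspo1) with each library clustered on its own, 63.6% (Lgr5) with gated cells, and 63.3% (Rspo1) without cells with a Upk3b or Upk1b UMI. With each library clustered on its own, 0 embryonic cells were named surface-epithelium-like, and gating named 4. Of 230 recomputed member differences 216 stayed within the interval of the value reported, 14 did not and 0 reversed. The cause was not tested. With a pseudocount of 1 CPM, 1958 genes (14.97%) were lower and 1025 (7.84%) higher at postnatal day 7, against 689 and 444; from day 7 to day 14 these were 692 and 655, against 152 and 163.

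Resolution 0.5 left no embryonic granulosa-like class and no embryonic surface-epithelium-like class, and gave no value there. In the settings that named an embryonic stroma-like class, 2 members (Rspo1 and Wnt5a) were lower at postnatal day 7 in 3 settings and 5 with gated cells, and 0 higher. Surface-epithelium-like values, the pooled classes and cluster 3 without cells with a Nkx2-5 or Tlx1 UMI were chosen after seeing the data. No paired analysis was possible because each age has 1 library. Leaving out a replicate was not possible either.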
